A study of Homo sapiens with 1 sample.

Results

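The 5 miRNAs described here are the mature arms of miR-7 and miR-671, the miRNAs known to bind the circular RNA CDR1as. They were taken by name from the scanner output of 1 array, as every human miRNA spot labelled hsa-miR-7-5p, hsa-miR-7-1-3p, hsa-miR-7-2-3p, hsa-miR-671-5p or hsa-miR-671-3p (the prefix is left out below), and they are 5 of the 2549 human miRNAs on that array. The array was hybridized with RNA of DLD-1, a human colorectal carcinoma cell line, after transfection with the negative control plasmid pLVX-NC. The study set such control cells beside cells overexpressing the circular RNA circLONP2. With 1 array there is no replicate culture and no second condition, so every error given below is the spread between spots of this array and no test between conditions was possible. The array does not measure CDR1as or circLONP2.

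miRNAs guide Argonaute proteins to partly complementary sites in other RNAs, mostly through the seed near their 5′ end, and thereby lower the stability or translation of their targets. CDR1as is a circular RNA, abundant in brain, that carries many sites for miR-7. It also carries a nearly perfect site for miR-671-5p, through which Argonaute can cut the circle. miR-7 is best known from neurons and endocrine cells, and in epithelial tumours it is known for repressing the growth factor receptor EGFR.

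The mature sequences are shown because the seed decides which targets each arm can pair with. They are RefSeq sequences of build GRCh38.p14, written 5′ to 3′, with the seed (bases 2 to 8) in capitals.
miR-7-5p: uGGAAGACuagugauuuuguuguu
miR-671-5p: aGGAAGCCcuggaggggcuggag
miR-7-1-3p: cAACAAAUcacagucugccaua
miR-7-2-3p: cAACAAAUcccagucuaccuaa
miR-671-3p: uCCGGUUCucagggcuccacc

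The 3p arms miR-7-1-3p and miR-7-2-3p share the same seed, and counted from the 5′ end they differ by the 4 substitutions A10C, G17A, A20U and U21A. No other human miRNA on the array with a RefSeq sequence shares that seed. The seeds of miR-7-5p and miR-671-5p, the arms that meet on CDR1as, differ by 1 base, A7C, and 0 other matched miRNAs carry either of them. Beyond the seed these 2 arms are unalike, with an edit distance of 13 over their full lengths. Of the 2549 names on the array, 2248 matched a RefSeq mature sequence, the 5 members among them.

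The precursors are shown because the same miR-7-5p comes from several of them, whereas its 3p arms differ by precursor. Mature arms that were measured are in capitals, and the build is GRCh38.p14.
MIR671: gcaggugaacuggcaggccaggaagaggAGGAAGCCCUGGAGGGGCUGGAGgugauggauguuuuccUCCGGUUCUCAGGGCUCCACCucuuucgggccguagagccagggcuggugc
MIR7-2: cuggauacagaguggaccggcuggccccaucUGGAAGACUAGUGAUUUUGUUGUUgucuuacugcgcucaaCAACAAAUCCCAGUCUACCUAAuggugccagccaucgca
MIR7-3: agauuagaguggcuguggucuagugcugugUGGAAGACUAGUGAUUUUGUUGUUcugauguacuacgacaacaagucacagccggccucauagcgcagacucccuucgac

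The MIR671 hairpin lies at chr7:151238421-151238538 on the + strand, within the span of CHPF2, a gene for a chondroitin glycosyltransferase. MIR7-2 lies at chr15:88611825-88611934 on the + strand, within the span of AEN, which encodes a nuclease of apoptosis, and MIR7-3 at chr19:4770670-4770779 on the + strand, within the long non-coding RNA gene MIR7-3HG. A further copy of miR-7-5p lies at chr9:83969811-83969834 on the - strand, in MIR7-1, within the span of HNRNPK, whose product is an RNA-binding protein. miR-7-1-3p, at chr9:83969771-83969792, is the 3p arm of that locus. A signal for miR-7-5p therefore cannot be assigned to a locus, while miR-7-1-3p and miR-7-2-3p each belong to 1 precursor.

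Each member was read by 20 spots, spread over 2 different probes for miR-7-5p, miR-7-1-3p and miR-671-5p and over 4 for miR-7-2-3p and miR-671-3p, which gave 100 spots on 14 probes. Brightness is the software's processed signal after its background subtraction, in arbitrary linear units. It is not simply the spot minus its local background. For example, a miR-7-2-3p spot with a median signal of 18 and a local background of 11 had a brightness of -3.82. A value near 0 or below it therefore does not mean that a spot was no brighter than its surroundings. Probes are numbered within each miRNA in the order of their identifiers. The software marked 8 of the 100 spots as outliers, and values below are without them unless stated. As a gauge of signal without a target, the 99th percentile over the 1000 negative control spots was 12.5, and it was 5.58 without the brightest of the 7 negative control probes. No human miRNA spot was saturated.

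Of the 5 members, 4 carried the software's Detected flag, against 56.8% of all human miRNAs on the array. miR-671-5p, miR-671-3p, miR-7-5p and miR-7-1-3p were detected, and miR-7-2-3p was not. When at least 0.5 of the spots of a probe had to be well above background, 3 of the 5 were called, against 49.9% of all miRNAs, and miR-7-1-3p was lost. The same 3 were called when every spot of a probe had to be well above background, against 45.8% of all miRNAs. When 0.5 of the spots of a probe had only to be positive and significant over background, 4 members passed, against 68.9% of all miRNAs. With the brightest probe set against the negative control level, 3 passed, against 55.9%, and without the brightest control probe 4, against 64.7%. miR-7-2-3p passed none of these 6 criteria, and miR-7-1-3p passed 3 of them. The RNA came from a whole culture, so fewer cells with a miRNA and less of it per cell cannot be told apart.

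**Figure D1:**
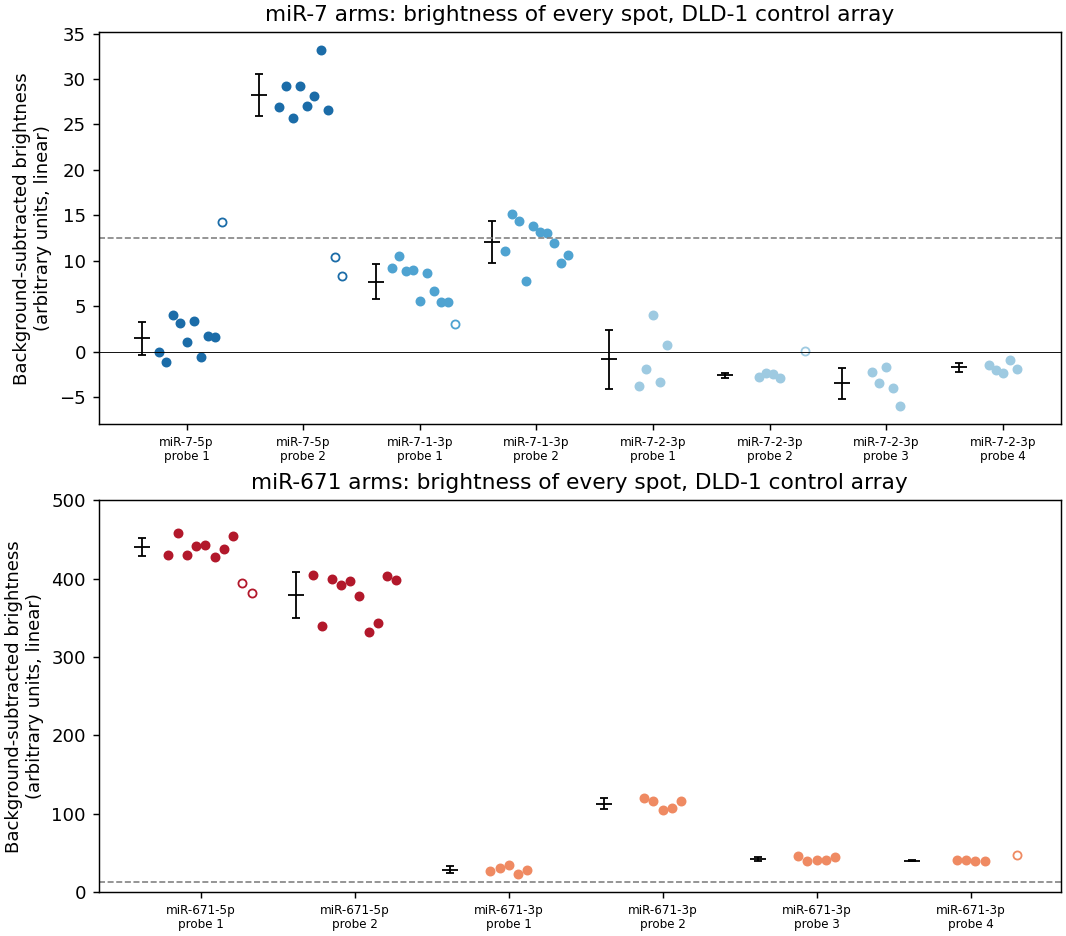
Background-subtracted brightness (arbitrary units, linear axis) of every spot of the 5 members by probe, on the DLD-1 control array. Filled points are spots used, open points are spots marked as outliers, black bars give the mean and SD of the filled points, and the dashed line is the 99th percentile over negative control spots, 12.5. Both miR-671 arms lie above the line on every probe, while the 2 probes of miR-7-5p fall on opposite sides of it and miR-7-2-3p lies near or below 0.

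miR-671-5p, the arm that pairs with CDR1as, was the brightest member. The 8 spots of its probe 1 ran from 428 to 458 with a median of 439.7, and the 10 spots of probe 2 from 332 to 405 with a median of 395. All 20 spots were well above background. The mean brightness was 440.5 ± 11.2 (SD over 8 spots) for probe 1 and 379 ± 29.2 (SD over 10 spots) for probe 2, a log2 difference of 0.22 (standard error 0.038 from the spots). The spots used of the 2 probes did not overlap, and the probes still differed by only 1.16-fold. The outlier spots of probe 1, at 381 and 394, lay within the range of probe 2. With outlier spots kept the log2 difference was 0.18. On the log2 scale, against the 75th percentile over detected probes (a brightness of 249), the level of miR-671-5p was 0.71. This placed it at rank 195 of 2549, with 92.3% of human miRNAs at a lower level. Brightness also depends on how well a probe binds, so ranks here order signals on the array, not amounts of RNA.

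miR-671-3p, the opposite arm of the same hairpin, was dimmer. Its brightest probe, probe 2, had spots of 120.5, 115.9, 104.6, 107.9 and 116.1. Its dimmest, probe 1, had spots of 26.9, 30.9, 34.8, 22.7 and 28.4. The other probes lay between these, at means of 42.3 ± 2.83 (SD over 5 spots) and 40.2 ± 0.457 (SD over 4 spots). All 20 spots were well above background. Probes 1 and 2 lay apart from each other and from the rest far beyond the spread of their spots. Probes 3 (39.1 to 45.7) and 4 (39.7 to 40.7) overlapped. The brightest was 3.94-fold above the dimmest, a log2 difference of 1.99 (standard error 0.11 from the spots). Of the 1447 detected miRNAs with at least 2 probes, 11.5% had a larger difference. The level of miR-671-3p relative to the reference percentile was -2.36, at rank 788. No spot of miR-671-3p reached the dimmest spot of miR-671-5p, since the highest was 120.5 and the lowest 332.

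miR-7-5p, the miRNA that CDR1as is best known for binding, gave a different picture with each of its probes. The 8 spots of probe 2 ran from 25.7 to 33.2 with a median of 27.6, and all 8 were well above background. The 9 spots of probe 1 ran from -1.16 to 3.98 with a median of 1.65, and 0 were well above background. The means were 28.2 ± 2.35 (SD over 8 spots) and 1.45 ± 1.81 (SD over 9 spots), a difference in brightness of 26.8 (standard error 1.03 from the spots). Probe 2 thus exceeded the 99th percentile over negative control spots, whereas probe 1 lay below it with and without the brightest control probe. Of the 10 spots of probe 1, 2 were positive and significant over background, 1 of them an outlier. For averaging, 3 of its spots were set to the lower limit of 1. The size of any fold between the probes depends on that limit, and so does the level averaged over both.

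The 3 outlier spots of miR-7-5p lay between its probes. They were 10.4 and 8.34 for probe 2 and 14.2 for probe 1. The level over both probes was -5.17 relative to the reference percentile, at rank 1456, and that of probe 2 alone was -3.14. The human miRNAs next to it by level were miR-323a-5p at -5.16 and miR-6862-3p at -5.17. For miR-671-5p these neighbours were miR-9500 at 0.73 and miR-5588-3p at 0.71. They are given for scale, as the miRNAs of nearest signal on 1 array.

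miR-7-5p counted as detected through 1 of its probes, because the Detected flag asks for no more. A miRNA was flagged exactly when at least 1 of its probes had a total signal above 3 times its error, with 0 exceptions among the 2549 human miRNAs. The total of a miRNA was the sum of those probes alone. For miR-7-5p only probe 2 passed, at 6.0 errors, against 0.386 for probe 1, and the miRNA's total signal of 5.19 was that of probe 2. Of the 1217 detected miRNAs with exactly 2 probes, the total rested on 1 of them for 161 (13.2%).

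**Figure D2:**
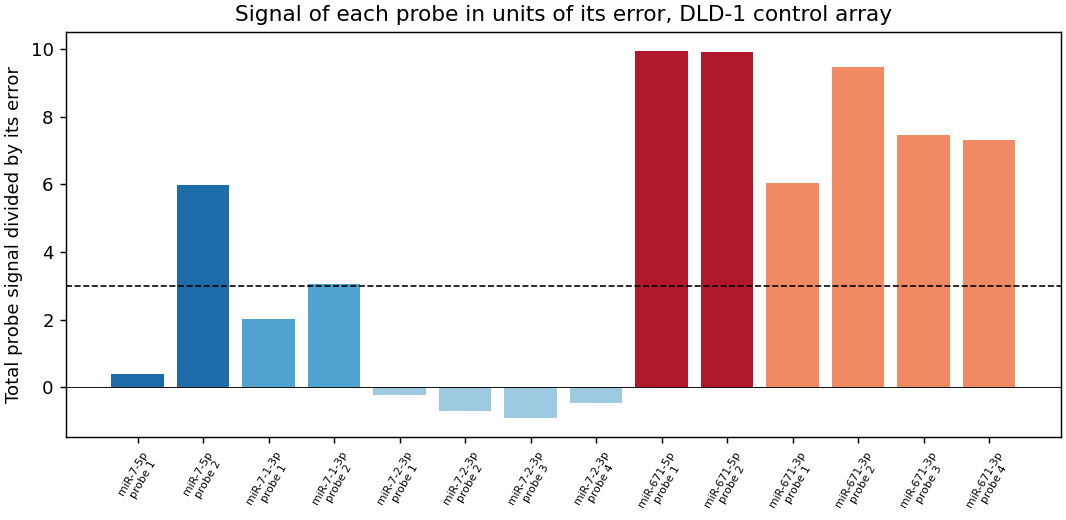
Total signal of each of the 14 probes divided by its error as the software gives them (vertical axis, no unit), by miRNA and probe number, on the DLD-1 control array. The dashed line at 3 is the value above which a probe counted as detected. All 6 probes of miR-671 pass it, probe 2 of miR-7-5p and of miR-7-1-3p pass it at 6.0 and 3.05, and every probe of miR-7-2-3p is below 0.

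The 3p arms of miR-7, which derive from separate precursors, were at or near background. The 10 spots of miR-7-1-3p probe 2 ran from 7.76 to 15.1 with a median of 12.5. The 9 spots of its probe 1 ran from 5.48 to 10.5 with a median of 8.62. The means of 12.1 ± 2.29 (SD over 10 spots) and 7.71 ± 1.92 (SD over 9 spots) were both below the 99th percentile over all negative control spots and above the one without the brightest control probe. No spot of miR-7-1-3p was well above background, and 19 of its 20 spots were positive and significant over background. Its Detected flag rested on probe 2, at 3.05 errors, while probe 1 had 2.01. Among the 1448 detected miRNAs, 9 had a lower value for their best probe, and 71 were detected with no spot well above background.

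miR-7-2-3p gave no signal above background on any of its 4 probes. Probe means were -0.855, -2.62, -3.47 and -1.72, and the 19 spots ran from -6.02 to 4.06. Of its 20 spots, 1 was positive and significant over background and 0 were well above it. The 2 arms that share a seed thus differed in detection, with no overlap among the spots used. The lowest of these for miR-7-1-3p was 5.48 and the highest for miR-7-2-3p 4.06. An outlier spot of miR-7-1-3p probe 1, at 3.02, lay below 4.06. Cross-reaction between these probes was not tested.

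The order of levels was miR-671-5p, miR-671-3p, miR-7-1-3p, miR-7-5p and miR-7-2-3p. The spots of miR-671-5p overlapped with those of no other member. Those of miR-671-3p lay above every spot of miR-7-1-3p, with a lowest of 22.7 against a highest of 15.1, but its dimmest probe (22.7 to 34.8) overlapped probe 2 of miR-7-5p (25.7 to 33.2). The spots of miR-7-1-3p and miR-7-5p overlapped, and the order of this pair depended on the summary. miR-7-1-3p was higher by 0.44 on the log2 scale when both probes of each were averaged, and miR-7-5p was higher by 1.25 when the brightest probe of each was used. The spots of miR-7-5p and miR-7-2-3p overlapped as well, through probe 1 of miR-7-5p.

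**Figure D3:**
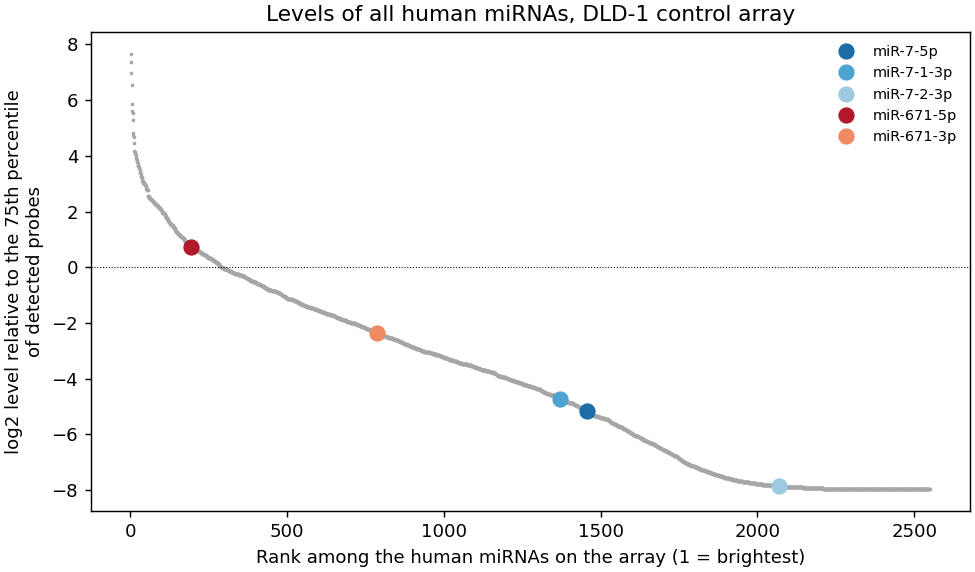
log2 level against the 75th percentile over detected probes (vertical axis) against rank (horizontal axis) for the 2549 human miRNAs of the DLD-1 control array, in grey, with the 5 members coloured. miR-671-5p lies above the reference at rank 195, miR-671-3p at rank 788, miR-7-1-3p and miR-7-5p close together at ranks 1370 and 1456, and miR-7-2-3p on the lower plateau at rank 2070.

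The MIR7-2 hairpin is overlapped on the opposite strand by MIR3529, which was looked at after its values were seen. Its mature arms are shown because they read the same DNA backwards.
miR-3529-3p: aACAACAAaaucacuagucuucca
miR-3529-5p: aGGUAGACugggauuuguuguu

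miR-3529-3p is the exact reverse complement of miR-7-5p. It lies at chr15:88611856-88611879 on the - strand and was not detected, with spots from -5.26 to -1.06 and a median of -3.15 (16 spots). miR-3529-5p lies opposite miR-7-2-3p, with an edit distance of 4 to its reverse complement, and was detected. Its probes had means of 34.1 ± 2.53 (SD over 9 spots) and 122 ± 33.3 (SD over 10 spots). By edit distance (5) it was also the closest to miR-7-5p among the 2248 miRNAs with a matched sequence. The means of both its probes were above those of miR-7-5p, although spots of its dimmer probe (29.3 to 37.1) overlapped those of miR-7-5p probe 2. Whether the miR-7-5p probes bind miR-3529-5p, or the reverse, was not tested.

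For the miR-671 arms no miRNA among the 2248 with a matched sequence was as close. miR-339-5p was nearest to miR-671-3p, at an edit distance of 7, with a brightness of 11.6 ± 5.40 (SD over 20 spots). Nearest to miR-671-5p, at 8, were miR-3649, miR-4430, miR-6125, miR-6730-5p and miR-6827-5p, of which 4 were detected and miR-3649 was not. Their mean brightness ran from 3.20 to 1073, on both sides of that of miR-671-5p.

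Brightness within a probe varied with the place of a spot on the array. Over the 2280 probes with every spot well above background, spots in columns 1 to 40 of 164 had a median log2 deviation from their probe's median of -0.18 (quartiles -0.39 and -0.045), against 0.015 in the other columns. Spots marked as outliers made up 7.59% of human miRNA spots in those columns and 2.93% elsewhere. These column limits were chosen after the data were examined. Of the 8 outlier spots of the members, 5 lay in columns 1 to 40. They include both outlier spots of miR-7-5p probe 2 (8.34 and 10.4) and both of miR-671-5p probe 1 (381 and 394). On the log2 scale the miR-7-5p pair lay much further below the other spots of its probe (25.7 to 33.2) than the miR-671-5p pair below its own (428 to 458). The miR-7-5p pair also lay well beyond the lower quartile of -0.39, and the cause was not tested.

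The 3 dim spots of miR-671-5p probe 2 lay in the same columns, at 332, 340.0 and 343, and its 7 spots elsewhere ran from 378 to 405. All 5 spots of miR-671-5p in these columns were dimmer than every spot of their probe in the other columns. Without columns 1 to 40 the log2 difference between the miR-671-5p probes was 0.15 in place of 0.22. The level of miR-671-5p was then 0.69 in place of 0.71 and that of miR-7-5p -5.17, as before. This check removed only 3 spots in use of miR-671-5p, all on probe 2, and 1 of miR-7-5p, on probe 1. The other spots in those columns, on miR-671-5p probe 1 and miR-7-5p probe 2, were already left out as outliers. For these probes the check therefore removed nothing. The spots of miR-7-5p used outside those columns ran from 25.7 to 33.2 for probe 2 and from -1.16 to 3.98 for probe 1, with no overlap.

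**Figure D4:**
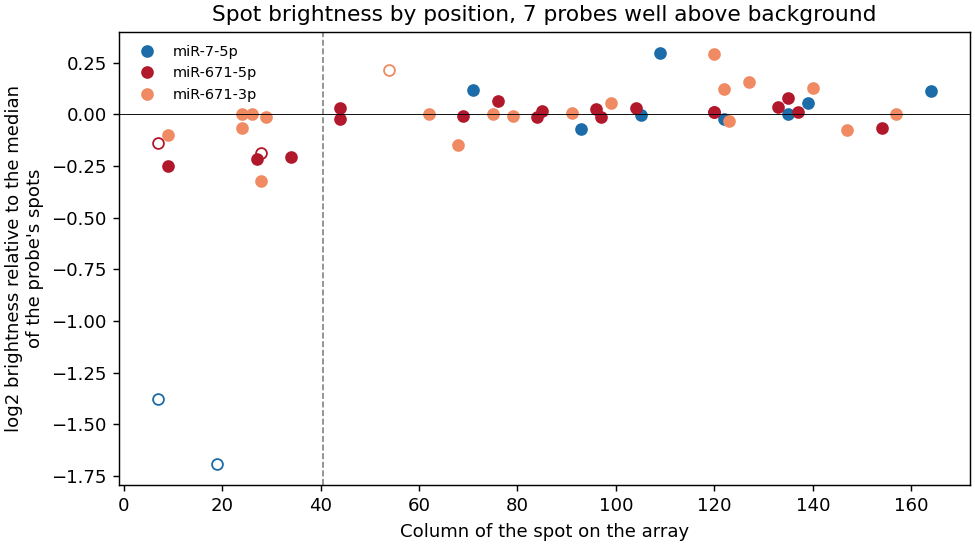
log2 brightness of each spot relative to the median of all spots of its probe (vertical axis) against the column of the spot on the array (horizontal axis), for the 7 member probes with at least 0.5 of their spots well above background. Open points are spots marked as outliers and the dashed line marks the end of column 40. Of the 13 spots left of the line, 9 are dimmer than every spot of their probe right of the line. The lowest points are the 2 outlier spots of miR-7-5p.

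The members fell into 2 kinds by base composition. miR-671-5p and miR-671-3p hold 69.6% and 66.7% G and C, miR-7-1-3p and miR-7-2-3p 40.9% each, and miR-7-5p 33.3%. The median of the 2248 matched miRNAs was 52.2%. Over all of these, signal rose with the share of G and C, with a Spearman correlation of 0.48 across miRNAs of 1 array, which share its labelling and hybridization. Of the 629 miRNAs below 45% G and C, 28.6% were detected, and of the 644 at 60% or above, 80.1%. The median level was -7.71 below 45%, close to the -7.96 of probes with every spot at the lower limit, and -2.39 at 60% or above. Thus miR-7-5p and miR-7-1-3p lay above the median of miRNAs of low G and C content, and miR-7-2-3p, at -7.86, lay below it. In the class at 60% or above, miR-671-3p lay near the median and miR-671-5p, at 0.71, above the upper quartile of -0.31. The part of base composition in the difference between the miR-671 and miR-7 arms was not tested.

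**Figure D5:**
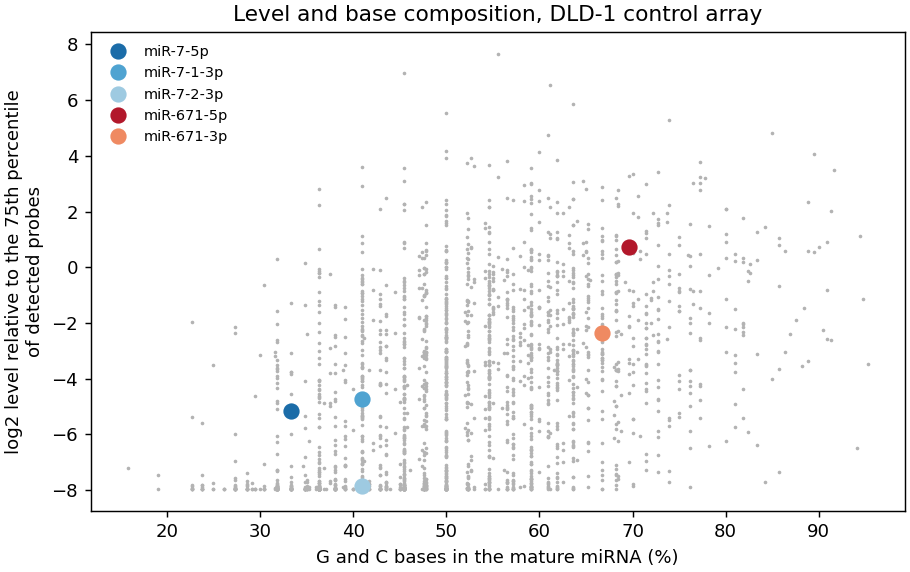
log2 level against the 75th percentile over detected probes (vertical axis) against the share of G and C bases in the mature sequence (horizontal axis, %) for 2248 human miRNAs of the DLD-1 control array, in grey, with the 5 members coloured. The miR-671 arms sit at 66.7% and 69.6% on the side of the plot where levels are higher, and the miR-7 arms at 33.3% and 40.9%.

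Other miRNAs known to be bound by circular RNAs were looked up from a list of 6. Of these, 3 were detected, a share close to the 56.8% of all human miRNAs. miR-124-3p, a neuronal miRNA bound by circHIPK3, averaged a brightness of 77.2 ± 19.4 (SD over 20 spots), miR-23b-3p 61.6 ± 5.72 (SD over 20 spots) and miR-17-5p 26.3 ± 4.18 (SD over 20 spots). miR-138-5p, known for its sites in the circular Sry transcript, was not detected, and neither were miR-214-3p and miR-9-5p. Their means were 8.90 ± 2.03 (SD over 19 spots), 8.02 ± 1.81 (SD over 20 spots) and -2.04 ± 2.06 (SD over 19 spots). miR-671-5p was brighter than all 6, and probe 2 of miR-7-5p alone was near the mean of miR-17-5p. With its probes averaged, miR-7-5p lay lower, at a level of -5.17 against -3.25 for miR-17-5p. The median level of the list was -4.04, against -4.27 for all human miRNAs on the array.

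The labelled epithelial origin was checked with markers. Of 8 miRNAs of colorectal epithelium, 6 were detected, led by miR-141-3p at 3024 ± 401 (SD over 20 spots), while miR-192-5p and miR-194-5p were not. Of 5 neuronal miRNAs, 2 were detected (miR-124-3p and miR-128-3p), and of 4 stromal and endothelial miRNAs 2. Of 5 blood cell miRNAs 3 were detected, at mean brightness of at most 16.5, although spots of miR-150-5p ran from -4.91 to 57.2. Of all human miRNAs 56.8% were detected, so the counts of the other cell types lay near or below the share on the whole array. The summed total signal of detected markers was 1204 for epithelium, 38.1 for neurons, 15.8 for blood cells and 35.3 for stroma and endothelium. miR-141-3p alone gave 1112 of the epithelial sum, and the other 5 detected epithelial markers together 92.4. The sums run over unequal numbers of markers. Next in total signal among the epithelial markers were miR-200b-3p at 29.9 and miR-200c-3p at 29.5, close to the neuronal miR-124-3p at 28.4. The median level was -2.73 for epithelium, -7.90 for neurons, -6.06 for blood cells and -5.05 for stroma and endothelium. The epithelial list thus stood highest by median. Apart from miR-141-3p, its single markers did not stand clear of the neuronal miR-124-3p.

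The authors' normalized log2 values kept the order of the software's totals for the members. They were 7.12 for miR-671-5p, 3.95 for miR-671-3p, 2.39 for miR-7-5p, 2.33 for miR-7-1-3p and 2.32 for miR-7-2-3p. The lowest value in that table, 2.32, was held by 1101 human miRNAs, and the value of miR-7-1-3p was shared by 183 detected ones. In these values the miR-7 arms are therefore barely apart, although on the scanner probe 2 of miR-7-5p was above both 3p arms with no overlap among the spots used.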

How the data were processed

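The data are the miRNA signals of 1 array, hybridized with RNA of control-transfected DLD-1 cells. The members and lists were chosen with earlier results of these data known.

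The authors scanned the Cy3 array and deposited the intensity of each spot from Agilent Feature Extraction 11.0.1.1, with background subtracted by the software. Outlier spots and spots above background were marked by flags, and totals per probe and miRNA were given. The authors also deposited log2 values, quantile normalized in GeneSpring GX per the methods. The labels describe dye ligation to miRNA and the methods labelled cDNA.

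Outlier spots and controls were dropped, any brightness under 1 became 1, log2 values were averaged over spots, then over probes, and the 75th percentile over 2567 detected probes (probes of detected miRNAs with at least 0.5 of their spots well above background) was subtracted. Named were all members, the miRNAs closest in sequence, the neighbours in level of miR-7-5p and miR-671-5p, and the listed miRNAs. Sequences and spans came from RefSeq (GRCh38.p14), as the scanner output names hg19 but holds no coordinates.

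Alternatives covered detection, scaling, normexp correction (limma 3.58.1, R 4.3.3, offset 50), outlier spots, probe summary and position on the array. Python 3.11.15, numpy 2.4.6 and pandas 2.3.3 were used, and the spot summary was tested on simulated data. All simulated levels lay well above the limit of 1, so that test does not cover dim spots. The number of arrays, 1, limits the precision.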

Additional observations from a re-analysis of the deposited data

How the results depend on the processing

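The number of members detected was 3 or 4 under all 5 other criteria, 1 of which, the negative control level without its brightest probe, was added after the data were examined. The level of miR-7-5p, -5.17, was -3.38 with the percentile over all probes, -2.07 after normexp correction, -3.14 for the brightest probe, -3.87 from the software's total and -3.47 from the deposited values. For miR-671-5p the level of 0.71 was 2.50, 0.60, 0.82, 0.99 and 1.25 in the same order, always above the reference percentile. The log2 difference between the miR-7-5p probes, whose size depends on the limit of 1 set for dim spots, was 4.05, and it was 3.42 with outlier spots kept and 0.53 with normexp, where the added offset of 50 brings dim spots closer together. Apart from that offset and the change of reference, the cause was not tested. The other 13 values of these 3 kinds stayed the same within 1 SD between spots or, for counts, within 1.5 times. For the other arms and the spot SD, 16 values stayed and 15 moved. miR-7-1-3p was above miR-7-5p with both probes averaged, also with outlier spots kept or without columns 1 to 40, and below it under normexp, by brightest probe, by total and by deposited value. The dim signals of the miR-7 arms limit what can be read from them. No paired analysis was possible because the data hold 1 array.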
